A study of Mus musculus with 4 samples.

Results

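Pre-mRNA splicing factors and heterogeneous nuclear ribonucleoproteins (hnRNPs) were followed on 4 dual-color mouse expression arrays of the colon. The genes were selected on their names, as probes listed under Srsf, Sfrs, Hnrnp, Hnrp, Sf3a, Sf3b, Snrp or Prpf, or as Sfpq, Nono, Pspc1, Tra2a or Tra2b, and Sfpq was already known to lie among the largest rises in Axin2+ cells, so that its value there is a description. The rule took 154 of 41174 gene probes, which stand for 71 of 27089 gene names. Of these 71 genes, 69 were measured on the Axin2 arrays and 69 on the Rspo3 arrays, a gene being measured where at least 1 channel of each array lay well above background at its probe. Hnrnpul2 was measured in neither experiment, Srsf12 not on the Axin2 arrays and Sf3a2 not on the Rspo3 arrays.

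Axin2 is a target gene of Wnt signalling, and R-spondin 3, which the Rspo3 gene encodes, is a secreted protein that strengthens that signal at the crypt base. In the first experiment, Axin2CreErt2/Rosa26-tdTomato mice received 4 mg tamoxifen per 25 g body weight, which starts a red label in Axin2+ cells, and 24 h later labelled (Axin2+) and unlabelled (Axin2-) colon epithelial cells of 3 mice were sorted and pooled. Both pools shared 2 arrays, with the dyes reversed on the second. This is 1 replicate measured 2 times, with no test and no p-value, and the spread between the arrays is technical. In the second experiment, Myh11CreErt2/Rspo3 fl/fl mice (Rspo3 KO) were set against Myh11CreErt2/Rspo3+/+ littermates (control). Both genotypes carry the Cre, which is active in Myh11+ myofibroblasts and smooth muscle, and both received tamoxifen at the same dose, with RNA taken 2 weeks later. Each array held 1 KO and 1 control mouse, with reversed dyes in the second pair, so n = 2 pairs. All mice were males on a C57BL/6 background, 6 to 8 weeks old. The labels name distal colon as the tissue of the KO arrays, and the methods name colon in one place and colon epithelium in another. Of 6 fibroblast and 6 smooth muscle markers, 6 and 5 were measured on the KO arrays and 2 and 3 on the Axin2 arrays. Col1a1 had a mean log2 intensity of 14.6 and Myh11 of 13.6 on the KO arrays, so their RNA includes stroma and muscle.

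Splicing removes introns from the primary transcript. The spliceosome is built from small nuclear RNAs, most of which carry a ring of Sm proteins, and from large protein subunits such as SF3b, which holds the U2 particle on the branch point, and the PRPF proteins of the U4/U6 and U5 particles. SR proteins bind exons and recruit this machinery, whereas many hnRNPs bind nascent RNA and repress or redirect splice sites. Sfpq, Nono and Pspc1 form the DBHS (Drosophila behaviour and human splicing) family, which binds RNA and builds the nuclear bodies called paraspeckles. Many SR proteins and hnRNPs control their own amount through alternative exons or introns of their own transcripts, so a gene can be read by probes of different transcript forms.

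Between 53.1% and 60.3% of the 43379 gene spots per array were well above background in a channel. Over all genes measured, the log2 ratios of the Axin2 arrays correlated at r = 0.92, and those of the Rspo3 KO pairs at r = 0.027. Among label checks, Axin2 itself was higher in Axin2+ cells (log2 ratios of 1.35 and 1.30), as was Lgr5 (a mean of 1.53), Krt20 of surface cells was lower (-3.01 and -2.77) and Epcam of all epithelial cells was near 0 (0.036 and 0.030). The targeted gene did not check the KO label: of 2 Rspo3 probes, one was below background in every channel and the other was above it only in pair 2, where its log2 ratio was 0.17. Of 7 crypt base markers 4 had a mean past 1.5-fold downwards in KO. Smoc2 gave -1.71 and -1.06 and Ephb3 -1.61 and -1.01, neither called by limma (adjusted p = 0.149 and 0.175). Ascl2 gave -0.47 and -0.76, and the brighter Lgr5 probe stood well above background in both control mice and in neither KO mouse. Short of 1.5-fold were Axin2 (-0.45 and -0.26), Sox9 (0.28 and -0.23) and Cd44 (0.48 and 0.042). These markers do not read the deleted gene, and KO stands for the channel labelled Rspo3 KO throughout.

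The probes of 4 genes are shown first, because the size of their change turned on which probe was read. Each is given as the opening 30 of its 60 bases, in the order in which the array files list it, in lower case with no base singled out, with the position of the whole probe in mouse genome build mm9. Listed transcripts are RefSeq mRNAs or Ensembl models.
Sfpq, RefSeq mRNA probe, chr4:126707281-126707340, plus strand: gtaagcaagctacctttttatggatgttag
Sfpq, Ensembl transcript probe, chr4:126705155-126705214, plus strand: ttccataagtaggagtcagacttgaggctt
Tra2b, RefSeq mRNA probe, chr16:22246376-22246435, minus strand: cttgccatattcaatatacctgcgattaag
Tra2b, Ensembl transcript probe, chr16:22259140-22259199, minus strand: gtcccacttgtagaatattgagcaatttgt
Srsf10, RefSeq mRNA probe, chr4:135423060-135423119, plus strand: acccagtacagttctgcttactacacttca
Srsf10, Ensembl transcript probe, chr4:135414785-135414844, plus strand: ccaaagagaaagcatgaaagaacttttaga
Srsf11, RefSeq mRNA probe, chr3:157674006-157674065, minus strand: cagtagtatcttatgcacagtgattccatg
Srsf11, second RefSeq mRNA probe, chr3:157680826-157682305, minus strand: agtccctgatttctgccgctattgagccag
The second Srsf11 probe is listed over 1480 genomic bases, more than its own 60, so its listed position is split. In all 4 genes the probe listed first lies closest to the 3′ end of the gene among those shown. Whether a probe falls in an exon, an intron or a UTR was not established here.

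In the Axin2+ pool, splicing factor and hnRNP genes were mostly higher than in the Axin2- pool. Taking for each gene its brightest measured probe, 62 of 69 genes were higher on both arrays (89.9%, against 40.9% of all genes measured), 3 were lower on both and 4 ran opposite ways. A mean log2 ratio past 1.5-fold (0.585), with both arrays pointing one way, was reached upwards by 30 of 69 genes (43.5%), against 7.83% of the 15791 genes measured, and downwards by 1, Snrpn, against 6.96%. The median log2 ratio of the 69 genes was 0.52 on array 1 and 0.49 on array 2, against 0.019 and -0.028 over all genes. The splicing genes were brighter than most (median log2 intensity of 10.8, against 8.25 over all genes), and among the 4552 genes at least as bright as their lower quartile, 11.9% were past 1.5-fold upwards. With 1.5-fold asked of each array singly, 25 of 69 genes remained past it upwards (36.2%, against 6.04% of all genes).

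This count changed with the loess step, which removes the dependence of the dye ratio on brightness. With each array only centred on its median, the splicing genes' median was 1.55 on array 1 and -0.74 on array 2, where the dyes are reversed, and 2 of 69 genes counted as past 1.5-fold upwards (2.90%), no more than the 3.08% of all genes under that centring. The median of the splicing genes' means over both arrays was 0.40 under that centring, against -0.029 over all genes. Sfpq had a mean of 1.96 there, and Snrpn of -0.58, just short of 1.5-fold.

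**Figure D1:**
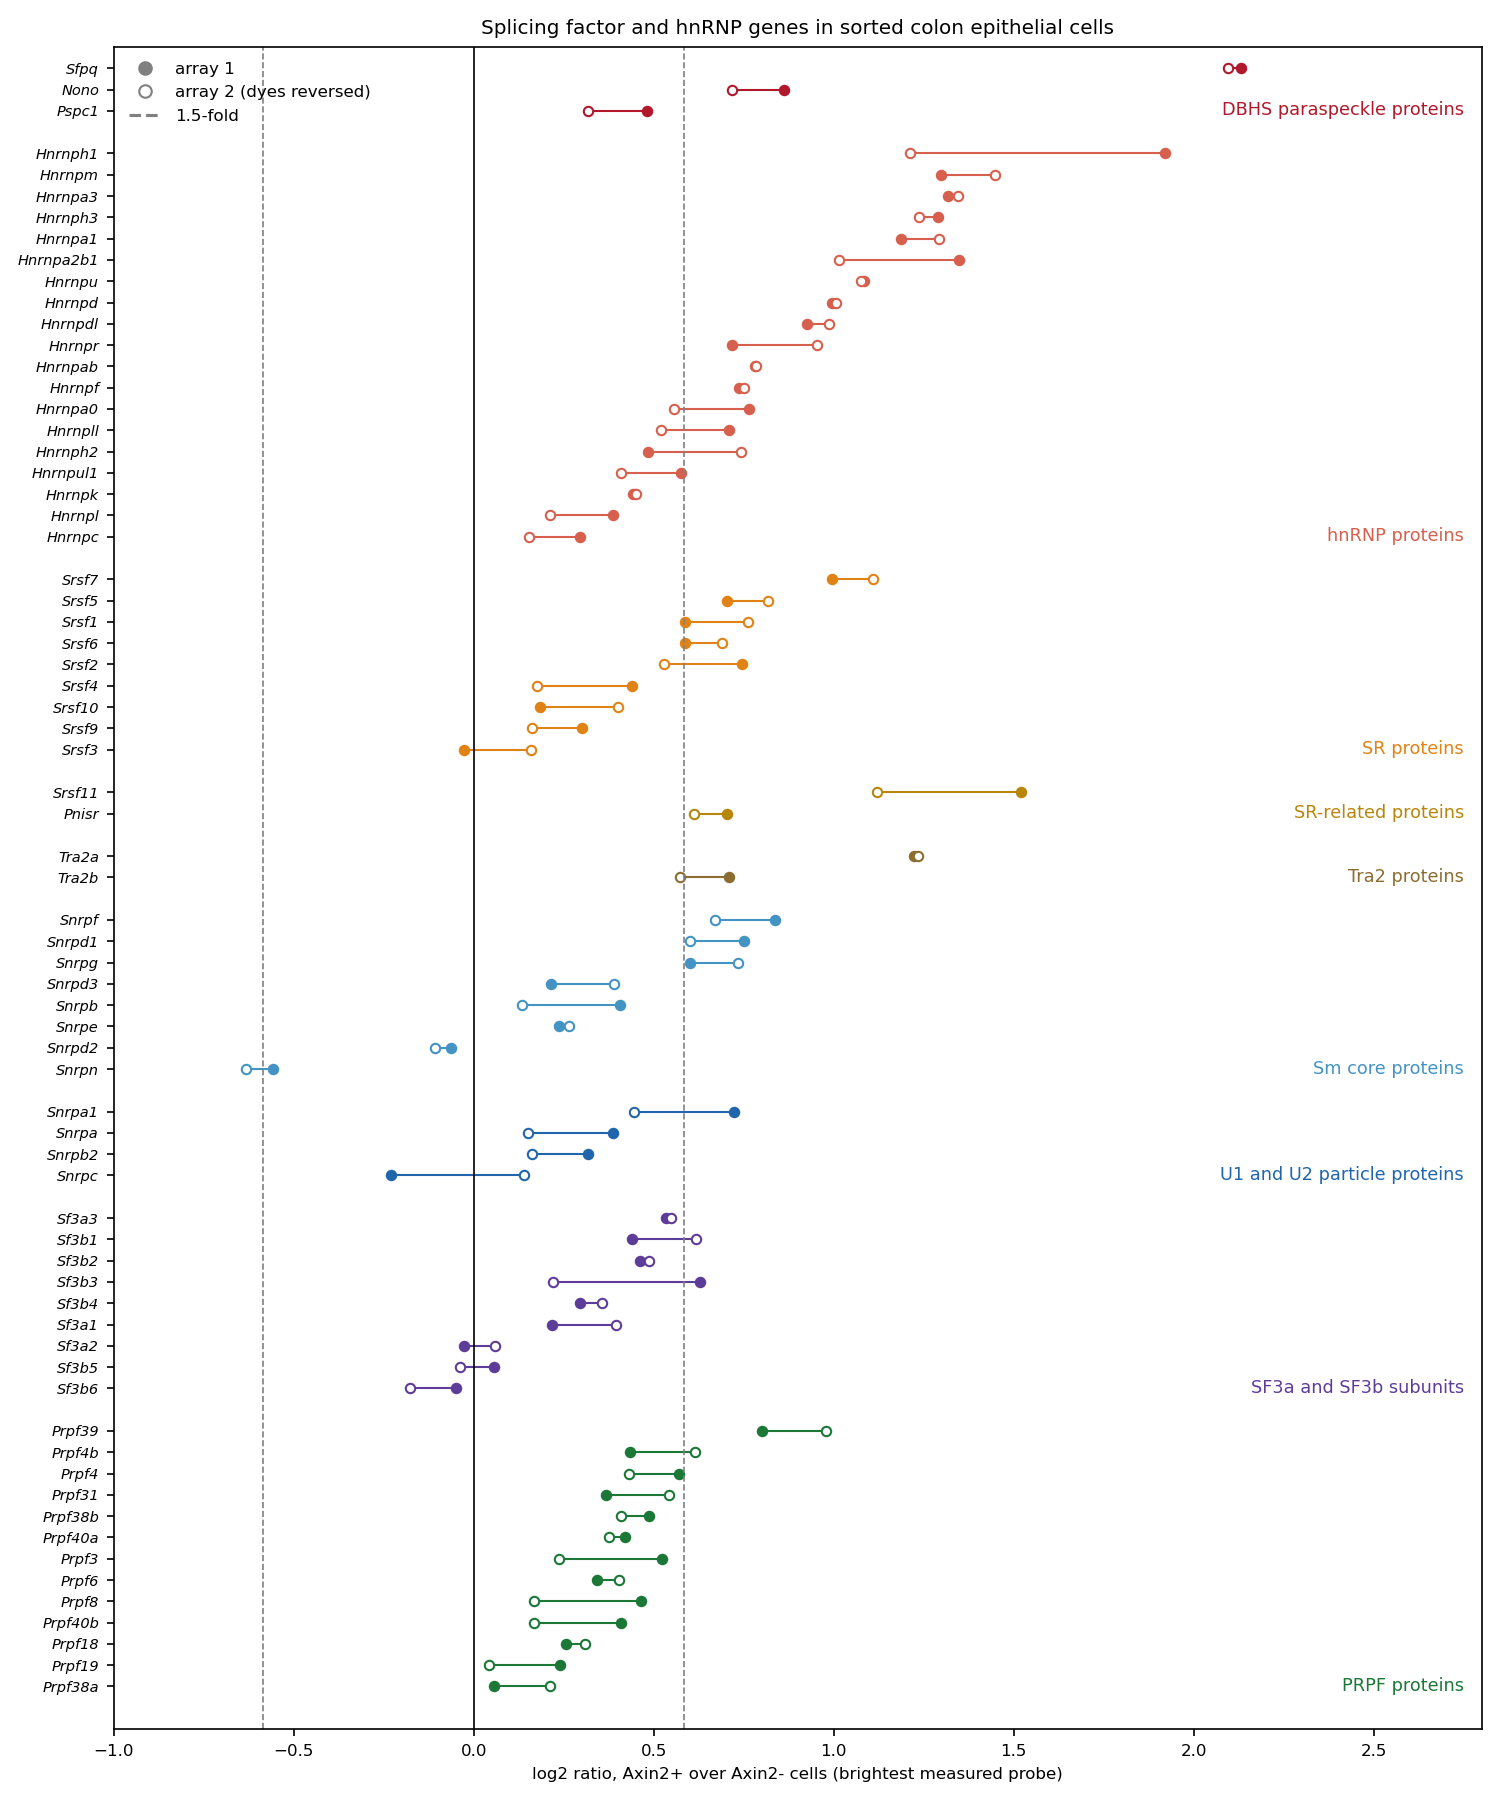
Log2 ratio of Axin2+ over Axin2- cells (x axis) for each of the 69 measured genes, grouped by the role of the protein, as given by the brightest measured probe; filled points are array 1, open points array 2 with the dyes reversed, and dashed lines mark 1.5-fold. Sfpq lies farthest right at 2.13 and 2.10, hnRNP genes spread from 0.22 to 1.57 in their means, and Snrpn is alone beyond the lower line in its mean.

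Among the DBHS genes, Sfpq gave log2 ratios of 2.13 on array 1 and 2.10 on array 2 with its brightest probe, the one of the Ensembl transcript. The normalised log2 level of that probe was 11.8 in Axin2+ cells on both arrays, and 9.64 and 9.74 in Axin2- cells. Only 3 of the 15791 genes measured had a larger mean rise. That probe is listed as a splicing gene only by the gene names of the KO files, not by those of the Axin2 files. The Sfpq probe of the RefSeq mRNA gave 1.31 and 1.02, a mean of 1.16, so both probes were higher in Axin2+ cells and their means differed by 0.95. Beside that mean of 1.16, Hnrnpa2b1 with a mean of 1.18 held rank 111 among all genes. Nono, the usual partner of Sfpq, gave 0.86 and 0.72 with its RefSeq mRNA probe and 0.97 and 0.86 with an Ensembl transcript probe. Pspc1 gave 0.48 and 0.32 with its RefSeq mRNA probe, and 0.47 and 0.66 with a GenBank cDNA probe, short of 1.5-fold in both means.

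All 19 measured hnRNP genes were higher on both arrays, and 15 of them passed 1.5-fold. Hnrnph1, which binds G-rich runs next to splice sites, had the largest mean of the group, 1.57, but its arrays lay far apart at 1.92 and 1.21. Hnrnpm gave 1.30 and 1.45, and Hnrnph3, a shorter relative of Hnrnph1, gave 1.29 and 1.24. The A/B type hnRNPs, abundant nuclear proteins that pack nascent transcripts, all rose past 1.5-fold: Hnrnpa3 gave 1.32 and 1.35, Hnrnpa1 gave 1.19 and 1.29, Hnrnpa2b1 gave 1.35 and 1.02, and Hnrnpa0 gave 0.77 and 0.56. Hnrnpu, the scaffold attachment factor that binds chromatin and RNA, gave 1.08 on both arrays. Hnrnpd and Hnrnpdl, which also bind AU-rich elements of mRNAs, gave 0.99 and 1.01, and 0.92 and 0.99. Hnrnpab, the brightest hnRNP gene, gave 0.78 on both arrays. Hnrnpr, Hnrnpf, Hnrnpll and Hnrnph2 made up the rest of those past 1.5-fold, with means between 0.61 and 0.83. The 4 hnRNP genes short of it with their brightest probe were Hnrnpul1 (mean 0.49), Hnrnpk (0.45), Hnrnpl (0.30) and Hnrnpc (0.22). Among paralogs, Hnrnph2 had a mean of 0.61 beside 1.57 for Hnrnph1, each read by 1 probe. Hnrnpll passed 1.5-fold only with its brightest probe, and its other probes had means of 0.50, 0.50 and 0.18. Hnrnpl, with its only probe, did not pass.

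Of 9 measured SR proteins, 5 passed 1.5-fold upwards and none passed it downwards. Srsf7, which takes part in splicing and mRNA export, was the brightest of them and had a mean of 1.05. Srsf5 had a mean of 0.76, Srsf1 of 0.67, Srsf6 of 0.64 and Srsf2 of 0.64. Srsf4, Srsf10 and Srsf9 were higher on both arrays with means between 0.23 and 0.31, and Srsf3 ran opposite ways at -0.027 and 0.16 with its brightest probe, while its other 2 probes had means of 0.42 and 0.26. Both SR-related genes passed: Srsf11 gave 1.52 and 1.12, and Pnisr, a member through its older name Sfrs18, gave 0.70 and 0.61. Of the Tra2 proteins, which activate exons rich in GAA repeats together with SR proteins, Tra2a gave 1.22 and 1.23, and Tra2b gave 0.71 and 0.57.

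The core of the spliceosome moved less. Of the 8 Sm core genes, Snrpf (mean 0.75), Snrpd1 (0.67) and Snrpg (0.67), the brightest, passed 1.5-fold upwards, Snrpd3, Snrpb and Snrpe had means between 0.25 and 0.30, and Snrpd2 was slightly lower on both arrays at -0.062 and -0.11. Snrpn, the imprinted relative of Snrpb that is best known from neurons, gave -0.56 and -0.63, and its second probe, which overlaps the first, gave -0.32 and -0.54. The first probe was well above background in both pools but dim. Its mean log2 intensity was 7.36, against a median of 10.8 for the splicing genes. Enteroendocrine markers were lower in the same contrast, with 5 of 6 past 1.5-fold downwards, a median of -2.22 and -2.42, and a summed level on the linear scale of 9802 and 10382 in Axin2+ cells against 50840 and 57305 in Axin2- cells. Their part in the Snrpn value was not tested.

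None of the 4 U1 and U2 particle proteins passed 1.5-fold. Snrpa1 of the U2 particle came closest with a mean of 0.58, and Snrpc of the U1 particle ran opposite ways at -0.23 and 0.14. The brightest Snrpa probe is listed on chromosome 17 while its other 3 probes and the gene lie on chromosome 7, so its mean of 0.27 is uncertain, and the other 3 gave means between 0.011 and 0.12. None of the 9 SF3a and SF3b subunits passed with its brightest probe: Sf3a3 (0.54), Sf3b1 (0.53) and Sf3b2 (0.47) led, whereas Sf3a2, Sf3b5 and the branch point subunit Sf3b6 lay between -0.11 and 0.015. All 13 PRPF genes were higher on both arrays, from 0.14 for Prpf38a upwards, and Prpf39, a U1-associated protein, was the only one past 1.5-fold, at 0.80 and 0.98. Prpf31 of the U4/U6 particle, the brightest, gave 0.37 and 0.54. Prpf8, the large protein at the catalytic centre, gave 0.46 and 0.17.

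**Figure D2:**
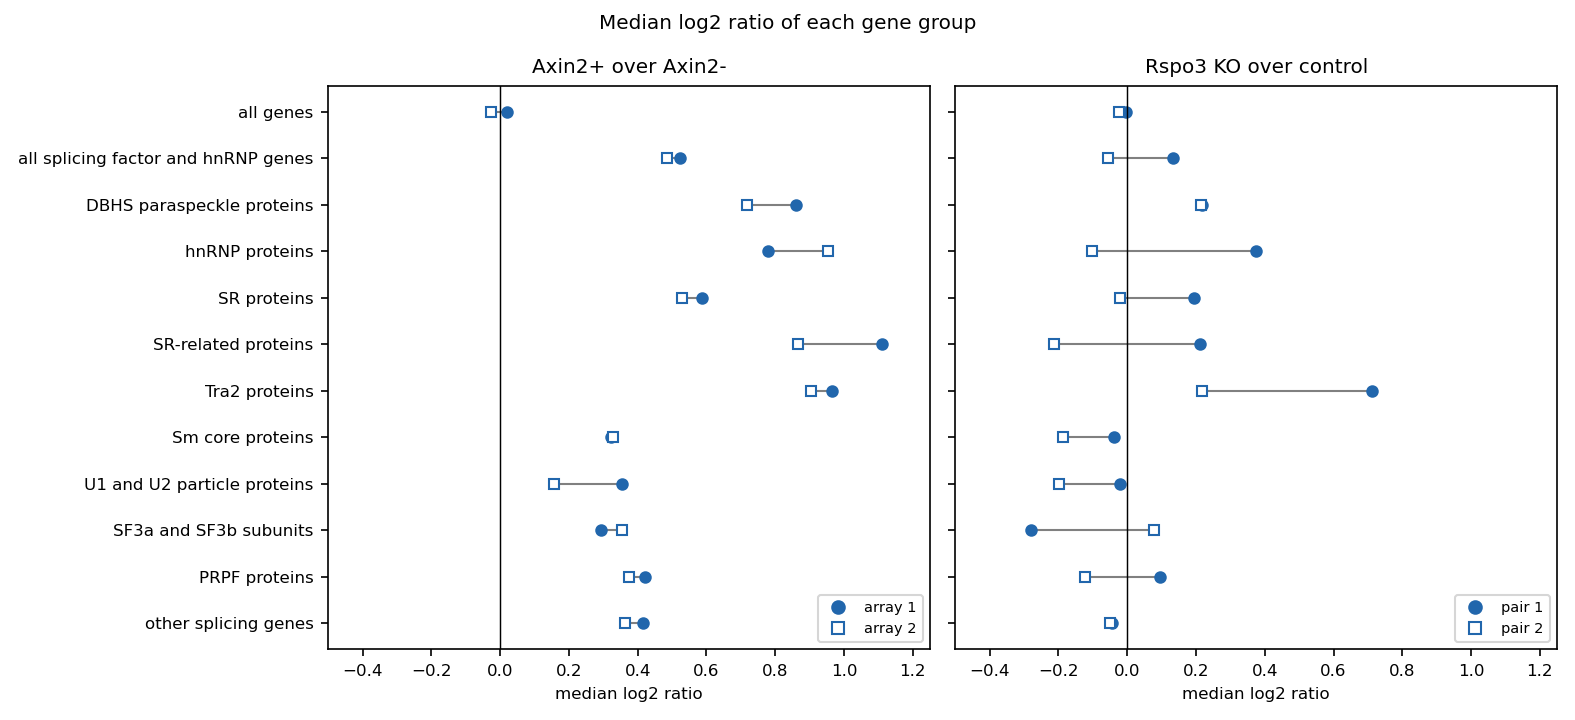
Median log2 ratio of each role group (x axis) on array or pair 1 (filled circles) and array or pair 2 (open squares), for Axin2+ over Axin2- cells on the left and Rspo3 KO over control on the right. On the left all role groups lie above all genes measured, hnRNP genes at 0.78 and 0.95 and U1 and U2 particle proteins at 0.35 and 0.16; on the right hnRNP genes lie at 0.37 in pair 1 and -0.10 in pair 2, and the SR, SR-related, SF3 and PRPF groups are also on opposite sides of 0.

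Other splicing genes, which the name rule does not take, were also mostly higher in Axin2+ cells. Of 112 measured among 113 listed, 27 passed 1.5-fold upwards (24.1%, against the same 7.83%) and 1 downwards, with a median of 0.42 on array 1 and 0.36 on array 2. With median centring in place of loess, 4 of 112 passed it upwards (3.57%, against 3.08% of all genes) and none downwards. The list of splicing regulators held 13 of 27 past it, led by Ptbp2 (1.42 and 1.28), a relative of the polypyrimidine tract binding protein, Tia1 (1.20 and 1.44) and Taf15 (1.14 and 1.36). The list of nuclear speckle scaffolds held 2 of 5. It also takes Neat1, the RNA of paraspeckles, which gave 0.42 and 0.62, a mean short of 1.5-fold. SR protein kinases held 2 of 7, U2AF and branch point proteins 2 of 6, further U1, U4/U6 and U5 proteins 4 of 16 and spliceosomal helicases 2 of 10. The exon junction complex held 1 of 12, the complex around Prpf19 1 of 10, and the Lsm ring (7 genes) and the snRNP assembly factors (12 genes) held none. The fall was Syf2 of the Prpf19 complex, at -0.60 on both arrays.

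The pools also differed in markers of cell types and of the cell cycle. Of 10 proliferation markers, 9 passed 1.5-fold upwards, with medians of 0.93 and 0.73 and a summed level of 20741 and 22541 in Axin2+ cells against 9674 and 11354 in Axin2- cells. Of 7 crypt base markers 6 passed it upwards (median of the means 1.12), and all 6 surface colonocyte markers passed it downwards (medians -2.88 and -2.64). Of 7 goblet cell markers 4 passed it downwards, with medians of -1.33 and -1.03 and a summed level of 57688 and 61751 in Axin2+ cells against 159023 and 151820 in Axin2- cells. No proliferation, crypt base, surface or goblet cell marker was left unmeasured. The part of these differences in the splicing genes was not tested, and more RNA per cell cannot be told apart from more cells with that RNA in pooled samples.

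Promoters of the splicing genes are described because many of them were higher together. RefSeq windows of build GRCm38.p6, from 250 bases before to 50 after a transcription start, were matched to 62 of the 71 genes, which hold 82 windows. Motifs were searched on both strands, and the set was chosen after the windows and the ratios had been seen. The letters CCGGAAG, bound by ETS factors, stood in 30.5% of the splicing genes' windows and in 8.86% of all 32851 windows. GCCATNTTG, bound by YY1, stood in 9.76% against 2.51%, and the E-box CACGTG in 13.4% against 7.15%. CCAAT stood in 48.8% against 37.4%, TGACGTCA in 3.66% against 1.79%, GCATGCGC, part of the NRF1 motif, in 4.88% against 2.71%, and TATAAA in 8.54% against 13.6%. None of these strings contains another. Of 27 genes past 1.5-fold upwards in Axin2+ cells, 6 held the ETS letters and 6 the E-box, and of 34 other measured genes 14 held the ETS letters and 3 the E-box. In the same order, CCAAT stood in 16 and 17 genes, TATAAA in 3 and 4, TGACGTCA in 2 and 1, GCATGCGC in 4 and 0, and GCCATNTTG in 3 and 5. A match is no evidence that a factor binds. The 150 bases before the start are printed for 4 of the genes with the largest rises that have a single window, with any motif of the set in capitals.
Sfpq, chr4:127021151-127021300, plus strand: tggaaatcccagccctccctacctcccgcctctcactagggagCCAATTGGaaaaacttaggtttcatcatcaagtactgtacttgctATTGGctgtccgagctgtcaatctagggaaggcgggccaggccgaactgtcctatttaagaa
Hnrnpm, chr17:33685459-33685608, minus strand: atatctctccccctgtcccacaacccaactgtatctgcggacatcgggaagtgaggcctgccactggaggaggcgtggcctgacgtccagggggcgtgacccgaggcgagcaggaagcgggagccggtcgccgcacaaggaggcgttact
Hnrnpa3, chr2:75659109-75659258, plus strand: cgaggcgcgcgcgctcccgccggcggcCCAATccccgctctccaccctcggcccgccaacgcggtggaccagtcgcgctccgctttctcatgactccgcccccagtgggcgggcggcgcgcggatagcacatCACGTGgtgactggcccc
Tra2a, chr6:49264053-49264202, minus strand: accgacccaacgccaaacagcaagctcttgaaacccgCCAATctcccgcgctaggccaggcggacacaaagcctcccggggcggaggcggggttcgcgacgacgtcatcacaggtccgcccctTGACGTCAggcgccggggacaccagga
The Sfpq window holds CCAAT letters on both strands, the Hnrnpa3 window an E-box and a CCAAT box, the Tra2a window a CCAAT box and the TGACGTCA letters, and the Hnrnpm stretch none of the set.

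Probes of the same gene did not always give the same size of change. On the Axin2 arrays 45 splicing genes had 2 or more measured probes, and in 41 of them the means of all probes ran one way. The exceptions were Hnrnpul1, Prpf4, Snrpd3 and Prpf18, each with a probe no lower than -0.053. In no gene did probes pass 1.5-fold in opposite directions. The median spread between the highest and the lowest probe of a gene was 0.33, more than the median gap of 0.15 between the arrays for the 69 genes. Srsf11 spread most: the 3′-most probe gave a mean of 1.32, the probe with the split position 0.37 and an Ensembl transcript probe 0.85. Hnrnpa1 ranged from 0.30 to 1.24 over 4 probes, and Hnrnph3 gave 1.26 with its RefSeq mRNA probe and 0.36 with an Ensembl transcript probe. Tra2a ranged from 0.38 to 1.23. Hnrnpa3 stayed high in all 4 probes, from 1.11 to 1.76. Besides Srsf11, Hnrnpa1, Hnrnph3 and Tra2a, other genes past 1.5-fold with the brightest probe had a lowest probe short of it. Its mean was 0.16 in Hnrnpab, 0.18 in Hnrnpll, 0.34 in Hnrnpr and 0.34 in Srsf1. It was 0.42 in Srsf2, 0.43 in Hnrnpf, 0.48 in Hnrnpdl, 0.49 in Prpf39 and 0.54 in Srsf7. Among these lowest probes, those of Hnrnpab, Hnrnpll and Hnrnpr were dim (mean log2 intensity of 6.57, 6.99 and 6.91). Those of Hnrnpf and Hnrnpdl were brighter (9.56 and 9.24). The part of brightness in the spread between probes was not tested. Conversely, in 4 genes short of 1.5-fold with the brightest probe, another probe passed it. These were a GenBank cDNA probe of Hnrnpc (mean 0.92), the Ensembl transcript probe of Srsf10 (0.70), both GenBank cDNA probes of Sf3b3 (0.97 and 0.86), and the 3′-most RefSeq mRNA probe of Hnrnpk (0.70). The Hnrnpc probe was also dim, at a mean log2 intensity of 7.18.

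In 16 of 23 splicing genes with both kinds of probe (69.6%), probes of Ensembl or GenBank transcripts gave a higher Axin2+ ratio than RefSeq mRNA probes of the same gene, against 63.8% of 1683 such genes in all, with a median difference of 0.093 and 0.094. The larger rise of the Ensembl probe in Sfpq was at the far end of the splicing genes, followed by Hnrnpc (a difference of 0.75), Srsf10 (0.50) and Sf3b3 (0.49), while Hnrnph3 lay at the other end (-0.90).

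**Figure D3:**
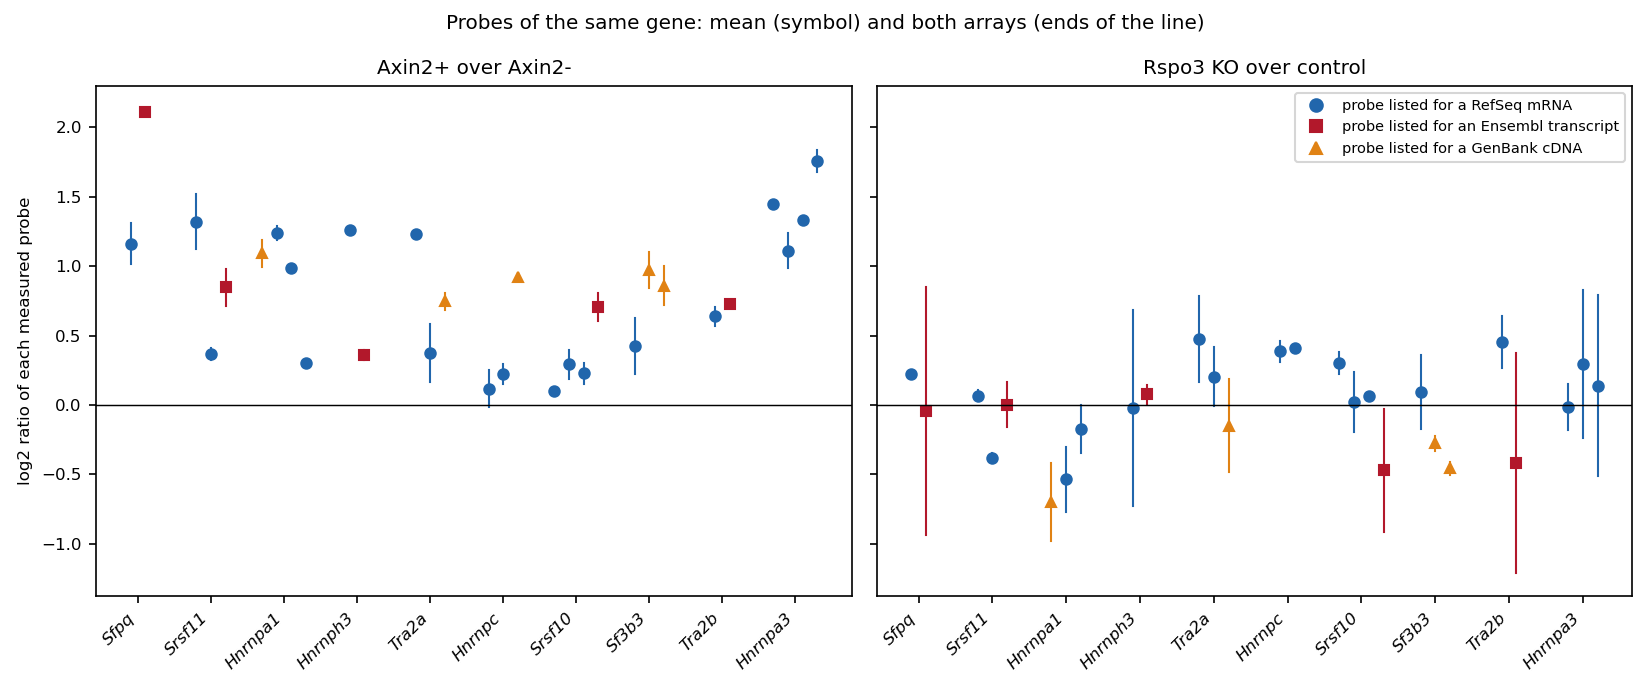
Log2 ratio (y axis) of each measured probe of 10 splicing genes, for Axin2+ over Axin2- cells on the left and Rspo3 KO over control on the right; a symbol is the mean of both arrays, the line runs from one array to the other, and the symbol's shape and colour give the kind of transcript the probe is listed for. On the left all probes lie above 0 in their mean, with Sfpq at 1.16 and 2.11; on the right the Ensembl probes of Sfpq, Srsf10 and Tra2b have long lines, from 0.38 to -1.21 in Tra2b.

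Rspo3 KO over control asked whether the same genes differ when the stromal Wnt enhancer is deleted, in tissue that also holds stroma and muscle. No splicing gene passed the test: limma called 34 of 15306 genes at an adjusted p under 0.05 (0.222%), none of the 69 measured splicing genes, whose smallest adjusted p was 0.843 by limma. At an unadjusted p under 0.05, limma found 1 of the 69, a smaller share than the 701 of all 15306 genes. A mean past 1.5-fold, with both pairs pointing one way, was reached upwards by none of the 69, against 1.84% of all genes. It was reached downwards by 1, Hnrnpa1, against 2.46%, though pair 1 alone was short of 1.5-fold there. With 1.5-fold asked of each pair singly, none of the 69 was past it upwards, against 0.823% of all genes.

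The pairs did not repeat each other. Their dyes were reversed, so in opposite signs a dye bias of single genes cannot be told apart from a difference between the mice. Of the 69 genes, 17 were higher in both pairs, 13 lower in both and 39 ran opposite ways (56.5%, against 55.9% of all genes), and over the 69 genes the pairs correlated at r = -0.37. The median was 0.13 in pair 1 and -0.057 in pair 2. In pair 1 alone 10 genes were past 1.5-fold in either direction (14.5%, against 15.6% of all genes), and in pair 2 alone 7 (10.1%, as over all genes). Proliferation markers also differed between the pairs, with a median of -0.44 in pair 1 and 0.30 in pair 2, and their summed level was 52227 in KO against 73463 in control in pair 1 and 70821 against 61110 in pair 2.

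Hnrnpa1 gave -0.42 in pair 1 and -0.98 in pair 2, a mean of -0.70 with a 95% interval from -1.28 to -0.12 (n = 2 pairs, limma, unadjusted p = 0.0242, adjusted p = 0.843). That value comes from a GenBank cDNA probe, and its 2 RefSeq mRNA probes measured in both pairs gave -0.77 and -0.30, and -0.35 and -0.000095. The brightest Hnrnpa1 probe on the Axin2 arrays was left out of pair 1 as an outlier spot and gave -0.30 in pair 2. B cell markers were lower in the same contrast: 5 of 7 were measured and 4 passed 1.5-fold downwards, with medians of -0.83 and -0.58, and their part in these values was not tested. Sf3b3, a subunit of SF3b, gave -0.50 and -0.41 with a GenBank cDNA probe, and 0.36 and -0.18 with its RefSeq mRNA probe.

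On the other side, Tra2a gave 0.79 and 0.17 with a 95% interval of the mean from -0.11 to 1.07, and Tra2b gave 0.64 and 0.27 with an unadjusted p of 0.0938 and an interval that includes 0 (limma). Srsf3 gave 0.35 and 0.55. Sfpq gave 0.23 and 0.21 with the RefSeq mRNA probe, an interval from -0.30 to 0.75, Pspc1 0.22 and 0.30, and Nono -0.15 and 0.13. Probes of other transcripts gave other signs in places: the GenBank cDNA probe of Pspc1 gave -0.17 and -0.29, and that of Tra2a 0.19 and -0.48. The tests did not separate any of these from 0, and the intervals of Tra2a, Sfpq and Pspc1 reach past 1.5-fold, while that of Nono runs from -0.55 to 0.53.

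Several genes far from 0 in a single pair ran the opposite way in the other. Snrpd3 gave 1.48 in pair 1 and -0.64 in pair 2, and a second RefSeq mRNA probe gave 1.33 and -0.76, while a dim GenBank cDNA probe gave 0.064 and 0.016. Sf3b4 gave -1.20 and 0.65, Snrpc -0.74 and 0.53, and Hnrnph3 0.69 and -0.73. The brightest gene of a role group lay near 0 or ran opposite ways in most groups: Hnrnpm gave -0.47 and 0.16, Srsf9 -0.023 and 0.21, Prpf6 -0.48 and 0.17, Snrpg -0.58 and 0.0011, Sf3b6 -0.016 and -0.073, Snrpa -0.12 and -0.15, and Srsf11 0.11 and 0.028. Hnrnpa0 gave 0.79 and -0.41, Hnrnpa3 0.83 and -0.24, and Hnrnpk 0.91 and -0.11.

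**Figure D4:**
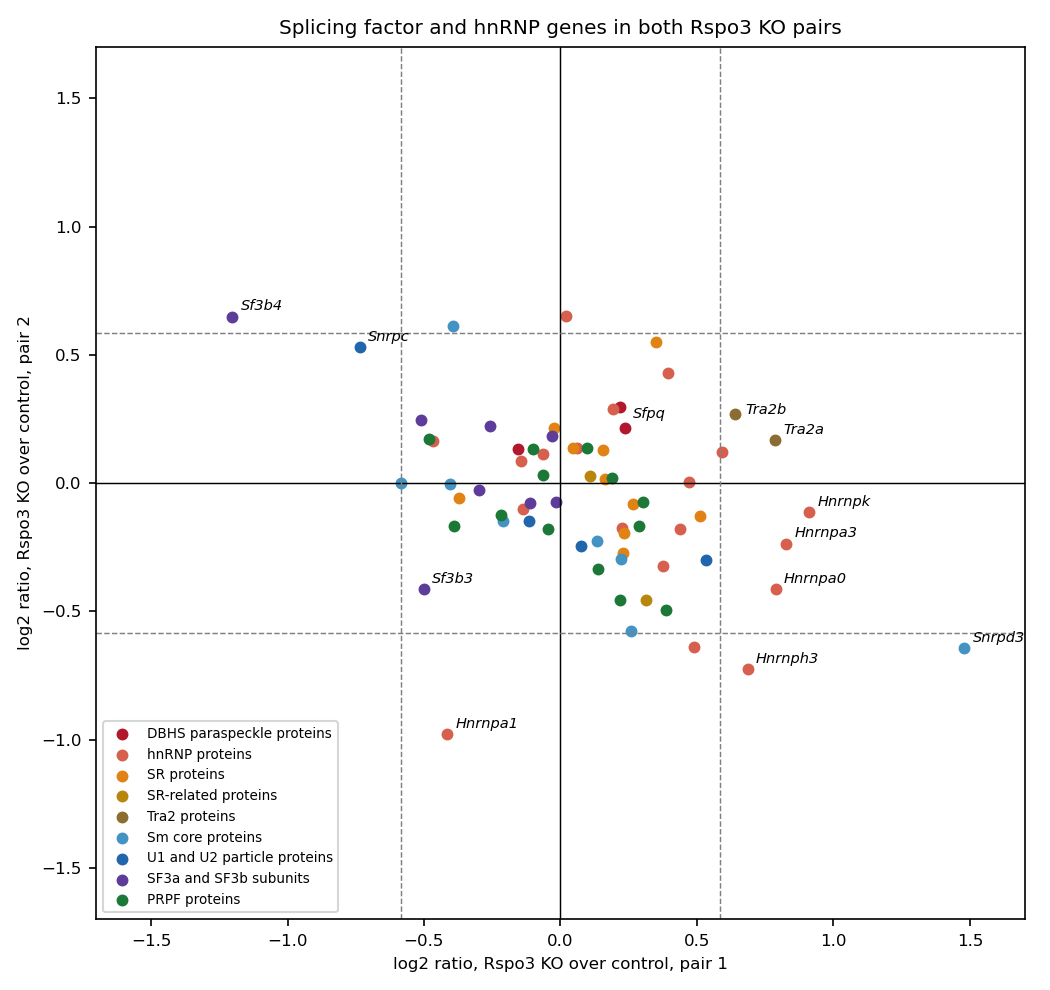
Log2 ratio of Rspo3 KO over control in pair 1 (x axis) and pair 2 (y axis) for the 69 measured splicing genes, coloured by role group, each point being the brightest measured probe of a gene; dashed lines mark 1.5-fold. No gene lies beyond the dashed lines on the same side in both pairs, Hnrnpa1 lies lowest at -0.42 and -0.98, and Snrpd3 lies farthest right at 1.48 with -0.64 in pair 2.

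The choice of probe set the KO values as well. The Ensembl transcript probe of Sfpq gave 0.85 in pair 1 and -0.94 in pair 2, where the RefSeq mRNA probe gave 0.23 and 0.21. The Ensembl transcript probe of Tra2b gave 0.38 and -1.21, and that of Srsf10 -0.028 and -0.91. In 15 of 19 splicing genes with both kinds of probe (78.9%), the probes of Ensembl or GenBank transcripts lay below the RefSeq mRNA probes in their mean, against 64.2% of 1359 such genes in all. The median difference for the splicing genes was -0.10 in pair 1 and -0.23 in pair 2, and for all such genes -0.036 and -0.13.

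Among the 113 other splicing genes, all measured on the KO arrays, limma called 0 (0 also at an unadjusted p under 0.05). None had a mean past 1.5-fold with both pairs pointing one way. Their median was -0.045 in pair 1 and -0.050 in pair 2, and 69 of them ran opposite ways.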

How the data were processed

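Per the labels and the study's methods, RNA was labelled with Cy3 and Cy5 and hybridised to dual-color Agilent whole mouse genome arrays. The authors deposited, spot by spot, the intensity of both dyes, their local background, and a log10 ratio of Cy5 over Cy3, which Agilent Feature Extraction had corrected for background and dye. The series' table of values, as deposited, holds the same log10 ratio. A p-value of the software's error model is also deposited and was not used.

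From the intensities, log2 ratios were computed with limma (version 3.58.1, R version 4.3.3) by normexp background correction (offset 50) and loess within each array, and turned to Rspo3 KO over control and Axin2+ over Axin2-. Control and outlier spots were left out, and the background fit did not use spots marked as background outliers, of which the KO arrays held 66 and 6. Spots of a probe were averaged, and a gene was read by its brightest measured probe in each experiment, which can differ between the experiments. The KO pairs were tested against 0 with lmFit and eBayes, with Benjamini-Hochberg adjustment over 15306 genes. The test has 1 residual degree of freedom, and 6.68 come from the spread shared over genes. The Axin2 arrays have no biological replicate and were not tested.

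The KO files carry gene names of an earlier annotation than the Axin2 files, and names of both were taken: 131 of the 154 probes are named as splicing genes in both, 16 only in the earlier and 7 only in the later. Of 41174 probes, 28473 were named by accession, 5512 by symbol and 356 by synonym through a RefSeq table (GRCm38.p6), and 6833 kept the files' name. Promoter sequences are RefSeq's.

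The genes and lists were chosen with earlier results of these data known. Named by rule were, in each experiment, the 10 largest rises and falls past 1.5-fold, the brightest gene of each role group, any gene called by limma, and the DBHS and Tra2 genes; others were named after their values were seen, to account for every group. The alternatives concerned background correction, normalization, filters, probes and thresholds. The number of arrays limits the precision. Labels and methods also differ on the extraction kit of the colon RNA.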

Additional observations from a re-analysis of the deposited data

How the results depend on the processing

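The mean ratio of each of the 20 splicing genes named by rule in Axin2+ cells kept its sign under all 13 alternatives run on it, Sfpq between 1.16 and 2.28, and the splicing genes' median stayed between 0.40 and 0.56. Sfpq fell to 1.16 with RefSeq mRNA probes only, and to the same value without the probes named only in the earlier annotation, both chosen after seeing the data; the gene counts there were 30 and 29 upwards. The 30 genes past 1.5-fold upwards became 2 with median centring in place of loess (2.90%, against 3.08% of all genes), and 12 at 2-fold (17.4%, against 1.68%). The 1 gene downwards became 0 with median centring, with the mean over probes and at 2-fold. With single arrays, the upward count was 28 to 31 and the downward count 0 to 1. In the Rspo3 KO, the 1 splicing gene past 1.5-fold became 0 with median centring, with the mean over probes, with RefSeq mRNA probes only and at 2-fold, 2 with the software's log ratios or the series' table of values, and 7 to 10 with single pairs. Splicing genes called by limma were 0 under every alternative that gives a test, while calls over all genes, 34, became 69 with no background correction, 120 with an offset of 16, 1 with all spots in the background fit, 7 with median centring, 106 with the software's log ratios and with the series' table of values, 0 with no filter on dim probes, 3 with the mean over probes, and 269 with 4 arrays and a shared dye term. The causes were not tested. The KO test is itself paired, since each ratio is taken within 1 pair of mice on an array. Between the experiments, whose arrays share the numbers 1 and 2, no paired analysis was possible because they hold different mice. Leaving out a pair leaves no residual degree of freedom for a test. Signal over background limits which genes have a value.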
